A study of Mus musculus with 26 samples.

Results

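The 10 genes described here encode the main cytosolic and mitochondrial chaperones of the heat shock response: Hspa1a, Hspa1b, Dnajb1, Dnaja1, Hsph1, Hsp90aa1, Hsp90ab1, Hspa8, Hspe1 and Hspd1. They were taken by gene symbol, and all 10 were found among the 31053 genes listed for the sorted microglia libraries. They were followed through 18 libraries of microglia, the resident macrophages of the brain, and through 8 libraries of nuclei from the embryonic cortex.

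HSP70 chaperones bind unfolded stretches of protein and release them in cycles of ATP hydrolysis. J proteins bring substrates to HSP70 and start its hydrolysis, HSP110 proteins exchange its nucleotide, HSP90 acts later on clients such as kinases and receptors, and the chaperonin of mitochondria folds imported proteins inside a closed chamber. Heat shock factor (HSF1) is held inactive by chaperones in unstressed cells, and when unfolded proteins accumulate it binds repeats of the unit GAA in promoters and turns these genes on. Some members are made in every cell (Hspa8, Hsp90ab1), whereas Hspa1a and Hspa1b are known for very low levels without stress and steep induction with it, which includes the handling of tissue before RNA is measured.

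Microglia were sorted as cells positive for Cd11b and Cx3cr1 and low for Cd45 from the prospective somatosensory cortex of wild-type C57Bl/6N mice, without enzymes and on ice, at embryonic day 13 (E13), E15 and postnatal day 14 (P14). The stage names are those of the labels, and the study's methods date the embryonic stages at midday, as in the E15.5 of the nuclei. At E12.5 the dams had received saline or the double-stranded RNA analogue poly(I:C), which models viral infection of the mother (maternal immune activation, MIA). The groups were 3 saline and 3 MIA libraries at E13, the same at E15, and 4 saline and 2 MIA libraries at P14, where a female and a male library make up saline replicate 3. Libraries of embryos pooled several embryos of mixed sex, and the P14 libraries came from single pups or a male and female pair. Nuclei came from flash-frozen E15.5 cortex of male wild-type and Csf1r-null (Csf1r-/-) embryos of the same 2 treatments, with 2 libraries in each of 4 groups, from few dams. Unlike the microglia, this tissue was digested with an enzyme, papain, before the nuclei were sorted. Csf1r-null mice carry the deletion in all cells throughout life and lack microglia because the receptor is needed for their survival. Values are unique molecular identifiers (UMIs) summed over the cells of a library and given as CPM, counts relative to the library total after scaling by edgeR's TMM factors. They count 3′ ends of transcripts, and fewer cells with a transcript and less transcript per cell cannot be told apart in such sums.

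The kept microglia held 6004400 to 95908000 UMIs per library at E13, 15933000 to 71148000 at E15 and 20537000 to 30512000 at P14. The summed level of the microglial marker list was 23380 to 67730 CPM in the sorted libraries and 4.5 to 38.7 CPM in nuclei, whereas neuronal markers stood at 52.6 to 380 CPM in the sorted libraries. Some libraries shared cell barcodes. Of 153 pairs of microglia libraries, 21 shared 30 or more cell barcodes and no other pair shared more than 21, among them 258 barcodes of E13 MIA replicate 2 and the female library of P14 saline replicate 3. The median ratio of UMI totals of a shared barcode ranged from 1.06 to 61.1 over the 21 pairs, and the correlation of log UMI totals across barcodes from -0.867 to 0.998 with a median of 0.903. Whether such barcodes stand for the same cells was not tested. In all, 1828 barcodes had fewer UMIs than the same barcode in another library, up to 16.2% of the cells of E15 MIA replicate 3. Among the nuclei, Csf1r itself checks the genotype. Its UMIs numbered 23 and 11 in wild-type saline, 22 and 0 in wild-type MIA, 4 and 10 in Csf1r-null saline, and 2 and 1 in Csf1r-null MIA, replicate 1 first. Replicate 2 of the libraries labelled wild-type MIA and replicate 2 of those labelled Csf1r-null saline therefore go against their labels, and results of members that rest on them are given with and without them.

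On mm10 with GENCODE vM21 models, Hspa1a (ENSMUSG00000091971, chr17:34969190-34972156, minus strand) and Hspa1b (chr17:34956436-34959238, minus strand) are neighbouring genes, each of a single exon. Hspe1 (chr1:55088132-55091307, plus strand) and Hspd1 (chr1:55077835-55088243, minus strand) lie head to head and share a promoter. The other members lie at chr8:83608193-83612653 (Dnajb1), chr4:40722150-40737149 (Dnaja1), chr5:149614287-149636376 (Hsph1), chr12:110690605-110702728 (Hsp90aa1), chr17:45567775-45573271 (Hsp90ab1) and chr9:40800984-40810087 (Hspa8). Of the 50-base stretches in the last 500 bases of the transcripts, 81.8% for Hspa8, 53.2% for Hspe1 and 7.76% for Hsp90ab1 also occur in other genes, mostly processed pseudogenes, and none do for the other 7 members. Counts of these 3 genes are uncertain to the extent that reads were discarded or assigned to the copies.

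RefSeq promoters (GRCm38.p6, from 250 bases before to 50 after a start site) were matched for 7 members, with 12 windows. Pairs of heat shock units, GAANNTTC or TTCNNGAA, were searched with overlaps merged into runs. Each of these strings is its own reverse complement, so the search covers both strands. At least 1 window of 6 of the 7 members held such a pair, and neither window of Dnajb1 did. A pair was present in 15.1% of all 32851 promoters of the table. This share and the next count single windows, whereas a member counts once if any of its windows holds a match. Longer runs of 3 units, GAANNTTCNNGAA or its reverse complement TTCNNGAANNTTC, stood in windows of Hspe1, Hspd1 and Hsph1 and in 0.603% of all promoters. These letters are descriptions of the windows and show no binding. No window was matched for Hsp90aa1, Hsp90ab1 and Hspa8. Windows of Hspe1, Hsph1, Hspa1a and Hspa1b are printed below in the direction of the gene, and capitals mark the runs.
Hspe1, chr1:55087898-55088197, plus strand: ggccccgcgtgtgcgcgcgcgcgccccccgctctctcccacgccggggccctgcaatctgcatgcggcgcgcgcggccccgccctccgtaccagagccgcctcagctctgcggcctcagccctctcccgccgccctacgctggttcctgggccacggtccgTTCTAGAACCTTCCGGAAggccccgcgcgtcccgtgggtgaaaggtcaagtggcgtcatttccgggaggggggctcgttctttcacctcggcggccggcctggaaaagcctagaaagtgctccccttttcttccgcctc
Hsph1, chr5:149636266-149636565, minus strand: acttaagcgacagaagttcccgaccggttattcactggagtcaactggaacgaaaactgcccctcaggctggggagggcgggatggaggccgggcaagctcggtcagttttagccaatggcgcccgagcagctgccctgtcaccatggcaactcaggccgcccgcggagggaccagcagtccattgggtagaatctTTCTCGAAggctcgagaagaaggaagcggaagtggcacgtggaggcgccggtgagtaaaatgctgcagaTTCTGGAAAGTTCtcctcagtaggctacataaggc
Hspa1a, chr17:34972107-34972406, minus strand: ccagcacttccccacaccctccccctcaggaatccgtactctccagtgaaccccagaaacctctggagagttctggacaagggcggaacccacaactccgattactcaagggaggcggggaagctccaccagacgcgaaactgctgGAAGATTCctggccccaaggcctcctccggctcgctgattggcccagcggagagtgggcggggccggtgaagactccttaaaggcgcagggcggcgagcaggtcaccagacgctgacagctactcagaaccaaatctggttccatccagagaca
Hspa1b, chr17:34959189-34959488, minus strand: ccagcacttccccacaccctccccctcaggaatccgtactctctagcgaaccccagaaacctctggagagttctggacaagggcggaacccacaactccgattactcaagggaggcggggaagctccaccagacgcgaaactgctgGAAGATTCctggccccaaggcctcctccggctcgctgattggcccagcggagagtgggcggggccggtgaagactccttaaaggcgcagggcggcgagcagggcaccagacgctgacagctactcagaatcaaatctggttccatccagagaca
The run of Hspe1 lies 89 bases before its start. Of the 300 bases, 285 are also in the Hspd1 window on the other strand, so that both mitochondrial chaperonin genes have the run between them. The run TTCTGGAAAGTTC of Hsph1 begins 15 bases after the start. The Hspa1a and Hspa1b windows are alike at 296 of 300 positions, and each holds a single pair, GAAGATTC, 104 bases before the start.

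The first comparison followed the chaperones through development in the saline microglia. They were lower at older stages: 5 of 10 members fell from E13 to E15 and 8 of 10 fell from E15 to P14, and none rose in either step (edgeR quasi-likelihood test, Benjamini-Hochberg adjusted p under 0.05). Of all 13467 genes tested, 11.3% were lower and 14.9% higher at E15 than at E13, and 26.5% were lower and 25.6% higher at P14 than at E15. The median difference of the members on the log2 scale was -0.60 from E13 to E15 and -1.08 from E15 to P14, beside 0.04 and 0.03 for all genes. Members whose libraries did not overlap, with every later library below every earlier one, numbered 6 of 10 in the first step (16.6% of all genes) and 9 of 10 in the second (26.4%). The labels give no sequencing batch, so stage and batch cannot be told apart in these steps.

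**Figure D1:**
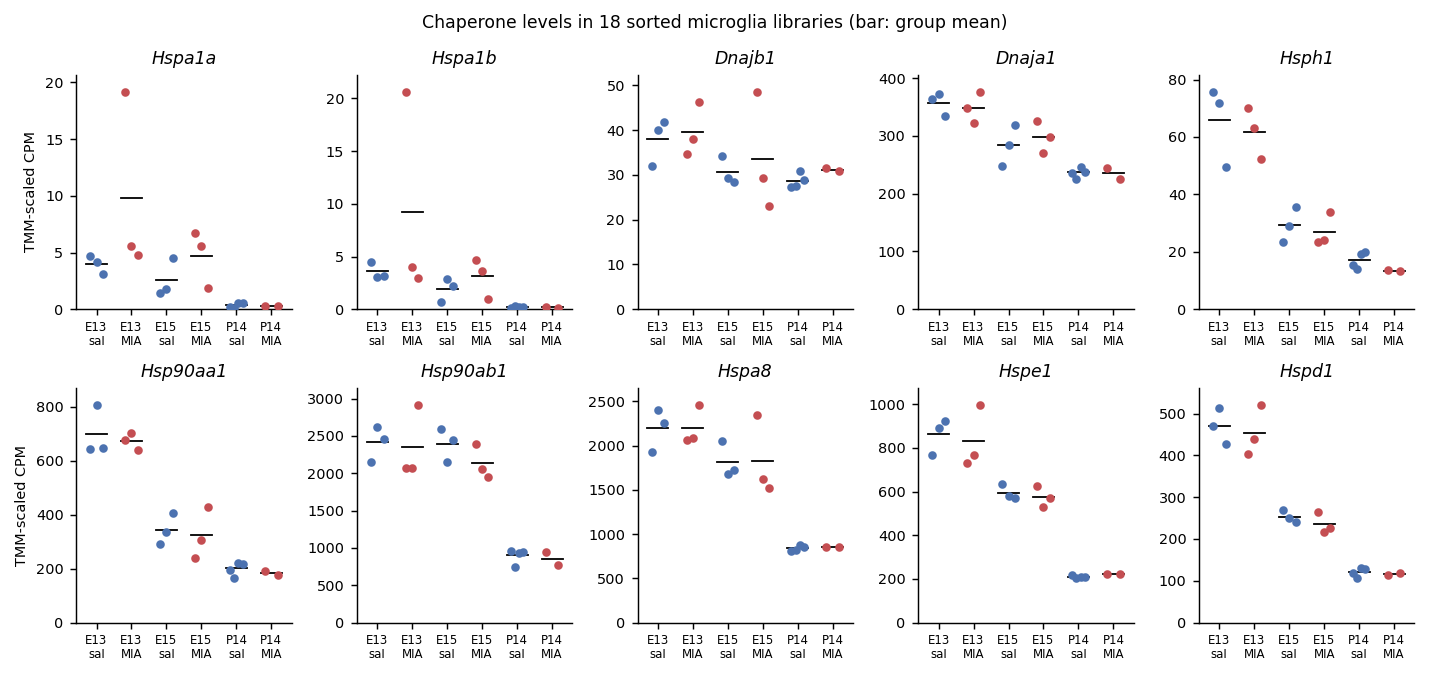
TMM-scaled CPM of the 10 chaperone genes in each of 18 microglia libraries, by stage and treatment (blue saline, red MIA). Each point is a library and each bar a group mean; vertical axes start at 0 and differ between genes. Hsp90aa1 stands at 640 to 806 CPM at E13 and at 167 to 221 CPM at P14, and E13 MIA replicate 1 stands apart for Hspa1a (19.2 CPM) and Hspa1b (20.6 CPM).

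Among the HSP90 genes, Hsp90aa1, the inducible form, fell at both steps. Its levels in saline libraries were 643, 806 and 646 CPM at E13, 290, 335 and 406 CPM at E15, and 196, 167, 221 and 218 CPM at P14. No library of one stage reached the range of the stage before. The log2 difference was -1.04 ± 0.16 (SE) from E13 to E15 (adjusted p = 0.00142) and -0.77 ± 0.14 from E15 to P14 (adjusted p = 0.00104). Hsp90ab1, the constitutive form, followed another course, with 2152, 2623 and 2464 CPM at E13, 2588, 2150 and 2440 CPM at E15, and 959, 748, 938 and 951 CPM at P14. Its embryonic stages overlapped fully (log2 difference -0.03 ± 0.12, adjusted p = 0.870), and all P14 libraries lay below them (-1.40 ± 0.11, adjusted p = 4.42e-06).

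The mitochondrial chaperonin genes fell at both steps. Hspd1, the HSP60 subunit that forms the folding chamber, stood at 469.6, 513 and 428 CPM at E13, 270.2, 250.1 and 241 CPM at E15, and 118, 107, 129 and 128 CPM at P14. Hspe1, the HSP10 subunit that forms its lid, stood at 769, 891 and 924 CPM at E13, 633, 579 and 571 CPM at E15, and 217, 205, 209 and 210.3 CPM at P14. The 3 stages of both genes are separate, and the spread within a stage was small beside the steps between them (SD 42.3, 15.0 and 10.3 CPM for Hspd1 around means of 470.2, 254 and 121 CPM). The log2 difference of Hspd1 was -0.91 ± 0.11 in the first step (adjusted p = 0.00067) and -1.06 ± 0.10 in the second (adjusted p = 1.58e-05). For Hspe1 it was -0.55 ± 0.10 (adjusted p = 0.00383) and -1.49 ± 0.096 (adjusted p = 1.30e-06).

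Hsph1, the HSP110 exchange factor for HSP70, stood at 75.7, 71.97 and 49.6 CPM at E13, 23.4, 29.0 and 35.5 CPM at E15, and 15.5, 14.1, 19.3 and 20.0 CPM at P14. All 3 stages were separate. The log2 difference was -1.19 ± 0.20 from E13 to E15 (adjusted p = 0.00254), the largest of the 10 members in that step, and -0.76 ± 0.19 from E15 to P14 (adjusted p = 0.00559).

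Hspa8, the constitutive HSP70 (Hsc70), stood at 1930.5, 2399.6 and 2261 CPM at E13, 2053, 1678.5 and 1721 CPM at E15, and 810.15, 825, 879 and 854 CPM at P14. The embryonic stages overlapped through E15 replicate 1, and all 4 P14 libraries were below both. The first step did not pass the test (log2 difference -0.29 ± 0.11, adjusted p = 0.0771) and the second did (-1.10 ± 0.11, adjusted p = 1.35e-05). Hspa8 passed in the first step when either E13 saline replicate 1 (adjusted p = 0.0441) or E15 saline replicate 1 (adjusted p = 0.0126) was left out.

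The J protein genes, which encode partners that deliver substrates to HSP70, differed least over the whole course. The ratio of the E13 to the P14 saline mean was 1.33 for Dnajb1 and 1.51 for Dnaja1, against 2.61 to 17.3 for the other 8 members. Dnaja1 stood at 363, 372 and 334 CPM at E13, 247, 285 and 319 CPM at E15, and 236, 226, 247 and 238 CPM at P14. It fell in the first step (log2 difference -0.35 ± 0.11, adjusted p = 0.0437), but 13 of 18 alternatives took the adjusted p past 0.05, within a range of 0.0140 to 0.135. Leaving out any saline library other than E15 replicate 3 was enough, with adjusted p between 0.0550 and 0.135. In the second step its log2 difference was -0.25 ± 0.11 (adjusted p = 0.0703), and it passed in 4 of 18 alternatives, among them the fit without E15 saline replicate 1 (adjusted p = 0.00931). Dnajb1 stood at 32.1, 40.1 and 41.8 CPM at E13, 34.3, 29.3 and 28.4 CPM at E15, and 27.2, 27.6, 30.8 and 28.9 CPM at P14. Neighbouring stages overlapped in Dnajb1, and it passed in neither step (-0.33 ± 0.12, adjusted p = 0.070, and -0.09 ± 0.12, adjusted p = 0.553). It passed in the first step without E13 saline replicate 1 (adjusted p = 0.0305) and without E15 saline replicate 1 (adjusted p = 0.0165).

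The inducible HSP70 genes gave few UMIs at every stage. Hspa1a stood at 4.66, 4.17 and 3.07 CPM at E13, 1.40, 1.78 and 4.50 CPM at E15, and 0.184, 0.0718, 0.556 and 0.512 CPM at P14, the last from 4, 2, 15 and 16 UMIs. Hspa1b stood at 4.52, 3.099 and 3.14 CPM at E13, 0.668, 2.90 and 2.16 CPM at E15, and 0.0918, 0.323, 0.222 and 0.192 CPM at P14, the last from 2, 9, 6 and 6 UMIs. Both were lower in every P14 library than in any embryonic saline library. The step from E13 to E15 did not pass (log2 difference -0.65 ± 0.50, adjusted p = 0.347, for Hspa1a, and -0.95 ± 0.45, adjusted p = 0.140, for Hspa1b), and that from E15 to P14 did (-2.89 ± 0.54, adjusted p = 0.00110, and -3.11 ± 0.52, adjusted p = 0.000511). The size of the second step of Hspa1a rests on few cells. It was -2.20 without E15 saline replicate 3, the highest E15 saline library, and -4.97 when each shared barcode was kept in 1 library, which left 3, 2, 2 and 1 UMIs at P14. Without dividing clusters it was -5.16, and it passed in all 3.

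**Figure D2:**
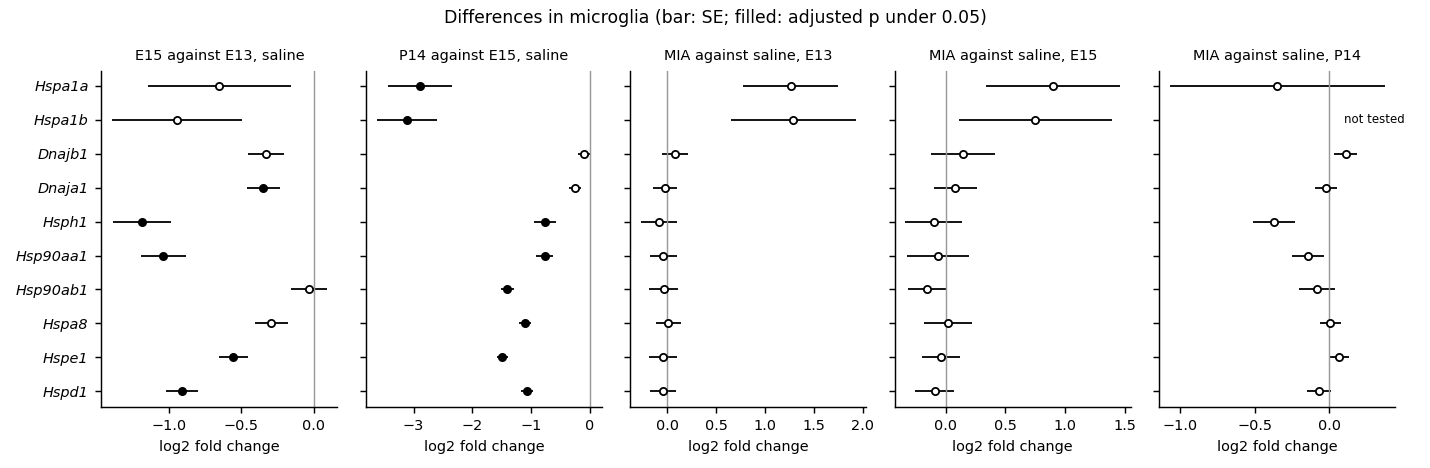
Log2 fold change with its standard error for each chaperone gene in 5 comparisons of microglia (MIA against saline at E13, E15 and P14, and saline E15 against E13 and P14 against E15). Filled points have an adjusted p under 0.05 and open points do not; Hspa1b was not tested for MIA at P14. The filled points are all in the 2 stage comparisons and all below 0, 5 in the first and 8 in the second, with the lowest at -3.11 for Hspa1b.

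Other measures moved with stage as well. The median UMIs per cell in saline libraries were 8703 to 16960 at E13, 8724 to 12480 at E15 and 3653 to 6800 at P14. Cells in clusters that scored high for a list of division genes made up 33.4 to 41.7% of the saline cells at E13, 7.03 to 27.0% at E15 and 1.53 to 6.34% at P14, and mitochondrial genes held 3.09 to 4.46%, 2.25 to 3.21% and 1.30 to 1.45% of the kept UMIs. A cluster of 729 embryonic cells among these clusters was led by other genes (AY036118, Tsix). At P14 most of these cells lay in a cluster of 965 that mixed border macrophage and division genes (Pf4, Pclaf, Lgals1). It held 1.34 to 6.08% of the P14 saline cells, and the cluster of dividing microglia held 0.195 to 0.324%. The summed level of the members in saline libraries was 6371 to 7338 CPM at E13, 4982 to 5594 CPM at E15 and 2649 to 3030 CPM at P14. Without the high-scoring clusters, 4 members fell in the first step and 8 in the second, although a cluster of 3385 embryonic cells led by replication genes (Dtl, Hells, Mcm2) stayed in that fit. Of all genes, 3936 and 6972 were called in either direction in that fit, beside 3537 and 7008 with all kept cells. The part of mitochondrial share in the result was not tested. Immediate early genes, which respond to dissociation, stood at 504 to 659 CPM at E13, 684 to 808 CPM at E15 and 1107 to 1312 CPM at P14 in saline libraries. The part of handling in the stage steps was not tested.

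The rest of the chaperone network was read from lists of 62 genes, of which 60 were tested. In the first step 26 fell and 2 rose, and in the second 28 fell and 9 rose, with median log2 differences of -0.34 and -0.36. The counts below stand beside 11.3% lower and 14.9% higher of all genes in the first step and 26.5% lower and 25.6% higher in the second. The TRiC chaperonin, which folds actin and tubulin in the cytosol, fell most uniformly, with 6 of 7 subunits in the first step and 7 of 7 in the second (Tcp1 -1.06 and Cct5 -1.01 in the second). Prefoldin, which hands substrates to TRiC, had 2 of 6 lower and 1 higher in the first step and 3 of 6 lower in the second. Of the HSP90 cochaperones, 4 of 9 fell in the first step, among them Fkbp4 (-0.74) and Ptges3 (-0.71), and 5 fell and 1 rose in the second. The gene that rose was Fkbp5 (1.23), an immunophilin cochaperone induced by glucocorticoids. Other HSP70 and HSP110 genes fell in 6 of 8 cases in the first step, including Hspa9, the mitochondrial HSP70 (-0.83), and in the second 3 of 8 fell and 2 rose.

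Of 13 other J proteins, 1 rose and 3 fell in the first step, beside 14.9% higher and 11.3% lower of all genes. In the second step 5 rose, 1 fell and 7 did not pass, beside 25.6% higher and 26.5% lower of all genes. Dnaja4 and Dnajb2 each rose by 1.71 on the log2 scale, Dnajb5 by 1.14 and Dnajb9, a J protein of the endoplasmic reticulum, by 1.03. Of 3 small heat shock proteins tested, Hspb1 fell by 4.07 and Cryab fell by 1.20. HSP70 cochaperones had 4 of 9 lower in the first step and 5 of 9 lower and 1 higher in the second, with Bag2, a nucleotide exchange factor, at -0.72 and -1.05 and Stip1, which links HSP70 to HSP90, at -0.79 in the first. Of the heat shock factor list (Hsf1, Hsf2 and Hsbp1, which binds heat shock factor), 0 of 3 passed in the first step and 1 fell in the second. The remaining other HSP90 list had 1 of 2 lower in each step.

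Levels also differed among the states that clustering separated within a stage, given here as a description because the clusters were made from the same cells. Beside each count stands the share of all genes, among those at 10 CPM or more in the remaining microglia, that were higher in every library; 8 of 10 members reach that level. At P14, cells of the cluster led by the chemokines Ccl3 and Ccl4 had higher levels than the remaining microglia of their own library for 7 members in 6 of 6 libraries (18.3% of all genes). The median log2 ratio was 0.75 for Hspd1, 0.72 for Hsp90ab1, 0.59 for Hsph1, 0.55 for Hsp90aa1, 0.52 for Hspe1, 0.47 for Hspa8 and 0.09 for Dnaja1. Dnajb1 was higher in 2 of 6. At E15, cells led by interferon-induced genes were higher for Dnaja1 (0.76), Hsp90aa1 (0.38), Hspe1 (0.36) and Hspa8 (0.21) in 6 of 6 libraries (7.77% of all genes). The same 4 genes had medians of 0.12 to 0.15 in the interferon cluster at E13 and of 0.10 or less at P14. Dividing cells were higher for Hsp90aa1 in 6 of 6 libraries at each embryonic stage, by a median of 0.35 at E13 and 0.89 at E15, as they were for Dnaja1 at E13 (0.18) and Dnajb1 at E15 (0.30), beside 20.8% and 25.6% of all genes. That is 2 of 8 members at each stage, near the share of all genes. The cluster led by Spp1 and Ccl3 was higher for Dnaja1 at E15 in 6 of 6 (0.42), which is 1 of 8 members beside 17.7% of all genes. Hspa1a and Hspa1b lay below 10 CPM, so these shares do not apply to them, and their E15 values rest on few UMIs. Hspa1b was higher in the interferon cluster in 6 of 6 libraries (1.48, from 2 to 29 UMIs a library), and in the cluster led by the immediate early genes Fos and Egr1 Hspa1a (-0.91, 0 to 50 UMIs) and Hspa1b (-0.86, 0 to 26 UMIs) were lower in 6 of 6. These counts are too few to read an order from in either cluster.

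The Hspa1a and Hspa1b transcripts of embryonic microglia sat in very few cells. Of 32838 cells, 41 (0.125%) held 10 or more UMIs of the pair, a limit chosen after the values were seen, and these cells held 38.3 to 93.1% of all Hspa1a and Hspa1b UMIs of their library. Every embryonic library had between 1 and 9 of them. The highest single cell held 239 UMIs, in E15 MIA replicate 1. With these cells set aside, the 2 genes together stood at 1.12, 3.82 and 2.45 CPM in E13 saline, 2.75, 1.18 and 2.27 CPM in E13 MIA, 1.15, 1.72 and 1.38 CPM in E15 saline, and 3.31, 1.67 and 1.57 CPM in E15 MIA. The saline and MIA ranges overlapped at E13, and at E15 MIA replicate 1 lay above all saline libraries while the other MIA libraries lay among them. At P14, 2 cells reached the limit, with 13 and 11 UMIs in the female and male libraries of saline replicate 3, and both carry the barcode of a cell of E13 MIA replicate 2 that held 35.

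**Figure D3:**
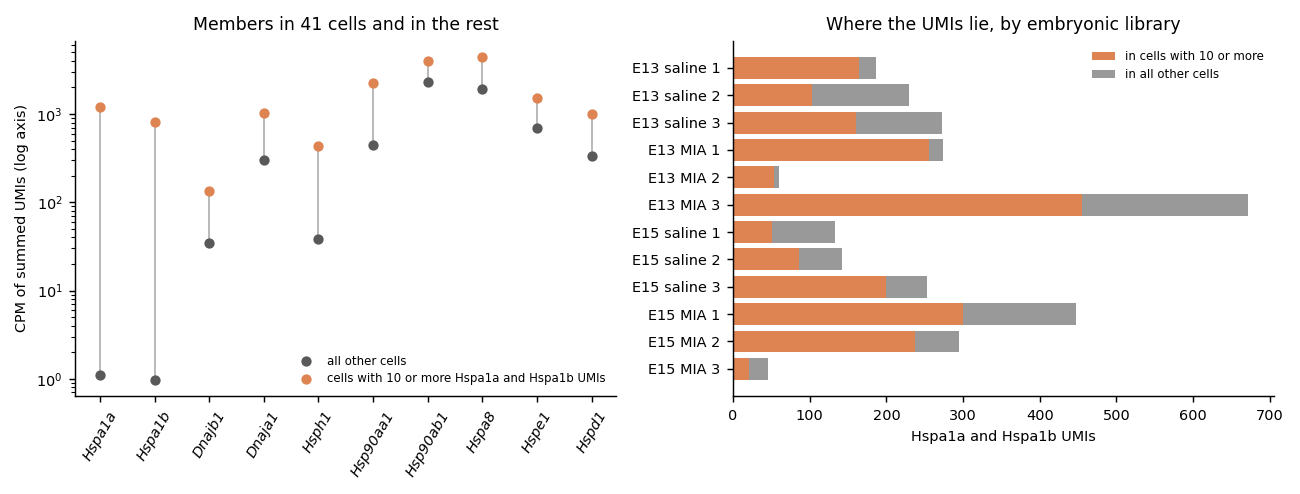
Left, CPM of the 10 chaperone genes in the 41 embryonic cells with 10 or more Hspa1a and Hspa1b UMIs and in the other cells (log axis). The points of Hspa1a and Hspa1b follow from that limit. Right, Hspa1a and Hspa1b UMIs of each embryonic library held by such cells and by the others. The 8 genes that the limit did not use are higher in the 41 cells, by 1.73-fold (Hsp90ab1) to 11.5-fold (Hsph1). In E13 MIA replicate 1 such cells hold 93.1% of the UMIs.

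The other 8 members, which the limit did not use, were higher in these cells. Compared within each library, 7 of them were higher in 12 of 12 libraries and Dnaja1 in 11 of 12. Of 4384 genes at 30 CPM or more in the other cells, a filter chosen after the values were seen and passed by all 8, 1.23% were higher in at least 11 libraries. That share is not matched for level, and genes of low level can give no UMI in libraries with few such cells. A fold of 2 or more was reached by 1.71% of these genes and by 7 of the 8 members. Hsph1 stood at 438 CPM in the 41 cells and 38.0 CPM in the rest (11.5-fold), Hsp90aa1 at 2244 and 448 CPM (5.01-fold), Dnajb1 at 133 and 34.8 CPM (3.83-fold), and Dnaja1 at 1034 and 298 CPM (3.47-fold). The constitutive and mitochondrial members differed less, with 2.96-fold for Hspd1, 2.29-fold for Hspa8, 2.17-fold for Hspe1 and 1.73-fold for Hsp90ab1. The members that differed most, Hsph1 and Hsp90aa1, were also those with the largest first step between stages. The folds pool cells of both embryonic stages, in unlike shares in the 41 cells and the rest, so these rankings are not independent. Of 61 other genes of the network, 41 had a fold above 1 and 20 did not, and 6 (St13, Ahsa1, Chordc1, Ptges3, Cct3 and Cct7) were higher in at least 11 libraries. Chordc1, an HSP90 cochaperone, was higher by 2.53-fold, Ptges3, another, by 1.72-fold in 12 libraries, and the TRiC subunits Cct3 and Cct7 by 1.63- and 1.72-fold. Larger folds in fewer libraries were those of the small heat shock protein Hspb1 (53.7-fold, 8 libraries), Dnaja4 (12.4-fold, 8 libraries), Hspa4l (6.94-fold, 8 libraries), Bag3, an HSP70 exchange factor (6.31-fold, 10 libraries), and Dnajb4 (4.40-fold, 10 libraries). Hsp90b1 of the endoplasmic reticulum (0.953-fold) and Hsf1 (1.17-fold) were higher in 4 and 7 libraries. Outside the network, the highest folds among genes with 100 UMIs or more in these cells were those of Srxn1 (65.1-fold, 11 libraries), Hmox1 (29.0-fold, 11 libraries), Cd36 (27.6-fold, 5 libraries), Atf3 (27.6-fold, 12 libraries), Gclm (20.4-fold, 11 libraries) and Ccl4 (11.4-fold, 10 libraries). Genes met that limit through their level in these same cells, so this ranking is only a description, and no share of all genes was counted. Cd36 was also among the leading genes of the border macrophage-like cluster, which held 2 of the 41 cells.

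The cluster led by Spp1 and Ccl3 held 10 of the 41 cells (24.4%) and 4.62% of all embryonic cells. The remaining microglia held 16 (39.0%, beside 48.7% of all cells), clusters led by division genes 9 (21.95%, beside 18.9%), the interferon cluster 3 (7.32%, beside 1.48%), the border macrophage-like cluster 2 (4.88%, beside 0.527%) and the immediate early cluster 1 (2.44%, beside 12.2%). The clusters of low UMI counts held 0, beside 13.5% of all cells. Their median depth was 20512 UMIs against 10608 in the other cells, and their median mitochondrial share was 2.80% against 2.41%. Immediate early genes summed to 2486 CPM in them and 836 CPM in the rest. The 41 cells had 41 distinct barcodes, and 5 of these also occurred in another library. The part of depth and of immediate early expression in the result was not tested.

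The second comparison asked whether MIA changed the chaperones in microglia. No member passed the edgeR test at any stage, and neither did any other gene (0% called of 12405 at E13, of 13170 at E15 and of 12929 at P14), with 128, 38 and 490 genes at an unadjusted p under 0.05 and 2, 0 and 0 genes called by DESeq2. At E13, Hspa1a stood at 19.2, 5.60 and 4.76 CPM in MIA against 4.66, 4.17 and 3.07 CPM in saline, and Hspa1b at 20.6, 4.00 and 2.97 CPM against 4.52, 3.099 and 3.14 CPM. MIA replicate 1 stood far above the rest, and the other libraries overlapped or nearly met. That library was the smallest, with 267 cells, of which 3 (1.12%) held 93.1% of its HSP70 UMIs. The log2 difference was 1.26 ± 0.48 for Hspa1a (adjusted p = 1.00) and 1.29 ± 0.64 for Hspa1b. Without MIA replicate 1 these were 0.35 and -0.12. The other 8 members differed by -0.09 to 0.08.

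At E15, Hspa1a stood at 6.72, 5.54 and 1.88 CPM in MIA and 1.40, 1.78 and 4.50 CPM in saline, and Hspa1b at 4.70, 3.66 and 1.00 CPM and 0.668, 2.90 and 2.16 CPM. Both treatments spanned most of the same range (log2 difference 0.90 ± 0.56 and 0.75 ± 0.64), and the other members differed by -0.15 to 0.15. Over 14 alternatives, which include the replicate block, Hspa1a and Hspa1b stayed above 0. Hsp90ab1 (-0.28 to -0.09) and Hspd1 (-0.17 to -0.02) stayed below 0, and the other members changed sign in at least 1. None passed in any alternative. E15 MIA replicate 1, which had the highest Hspa1a, Hspa1b and Dnajb1 (48.5 CPM) of the E15 libraries, also had the highest immediate early level, at 2037 CPM against 684 to 808 CPM in the other 5. The part of that level in the result was not tested. At P14, Hsph1 stood at 13.6 and 13.2 CPM in MIA and 15.5, 14.1, 19.3 and 20.0 CPM in saline. Both MIA libraries lay below all 4 saline libraries, as in 3.95% of all genes, and the log2 difference of -0.37 ± 0.14 did not pass over all genes (adjusted p = 0.932). With the replicate block it was -0.18. Dnajb1 (31.5 and 30.8 CPM) and Hspe1 (222 and 222 CPM) had both MIA libraries above all 4 saline libraries, whose highest were at 30.8 and 217 CPM, as in 7.05% of all genes. With each shared barcode kept in 1 library, Hsph1 and Hspe1 stayed apart and Dnajb1 overlapped. Hspa1b was not tested there, at 6 and 4 UMIs. The other members differed by -0.14 to 0.11 apart from Hspa1a, whose log2 difference was -0.35 ± 0.72. The direction of most members rested on the shared barcodes. Of 9 members tested, 6 were below 0 and 3 above in the main fit (median -0.07). With each shared barcode kept in 1 library, 1 of 8 tested was below 0 and 7 were above (median 0.04, range -0.28 to 0.18).

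The order of treatments for Hspa1a at P14 changed with the handling of shared barcodes. It stood at 0.255 and 0.272 CPM in MIA (7 and 9 UMIs), within the saline range. With each shared barcode kept in 1 library, MIA was at 0.224 and 0.244 CPM (6 and 8 UMIs), above saline at 0.140, 0.0722, 0.0809 and 0.0341 CPM (3, 2, 2 and 1 UMIs). With the replicate block, which pairs same-numbered libraries, the edgeR log2 difference was 1.06 (adjusted p = 0.793).

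Whether the response to MIA differed between E13 and E15 was tested as an interaction. No member and no gene passed (0% of 13507, 52 at an unadjusted p under 0.05, 0 by DESeq2). The difference of differences was -0.31 ± 0.83 for Hspa1a and -0.48 ± 1.02 for Hspa1b, and between -0.07 and 0.16 for the other 8. The HSP70 pair had the largest standard errors of the members, and differences of the size of those errors were not detectable for them.

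The third comparison took the chaperones to the nuclei, where MIA was set against saline in wild-type and in Csf1r-null cortex. Hspa1a and Hspa1b gave 16 and 21 UMIs in all 8 libraries together and were not tested. The other 8 members were all lower in wild-type MIA than in wild-type saline, with a median log2 difference of -0.32 beside 0.02 for all genes, and none passed the test over all genes (0% of 14376 called by edgeR, 779 at an unadjusted p under 0.05, 4 called by DESeq2). In 7 of 8 members both wild-type MIA libraries were below both wild-type saline libraries, as in 19.0% of all genes. In 4 of 8 (Dnajb1, Hsp90aa1, Hspa8 and Hspd1) the wild-type saline libraries were above all 6 others, as in 8.68% of all genes. Without the 2 libraries that go against their labels the counts were 7 of 8 (34.0% of all genes) and 4 of 8 (11.8%).

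**Figure D4:**
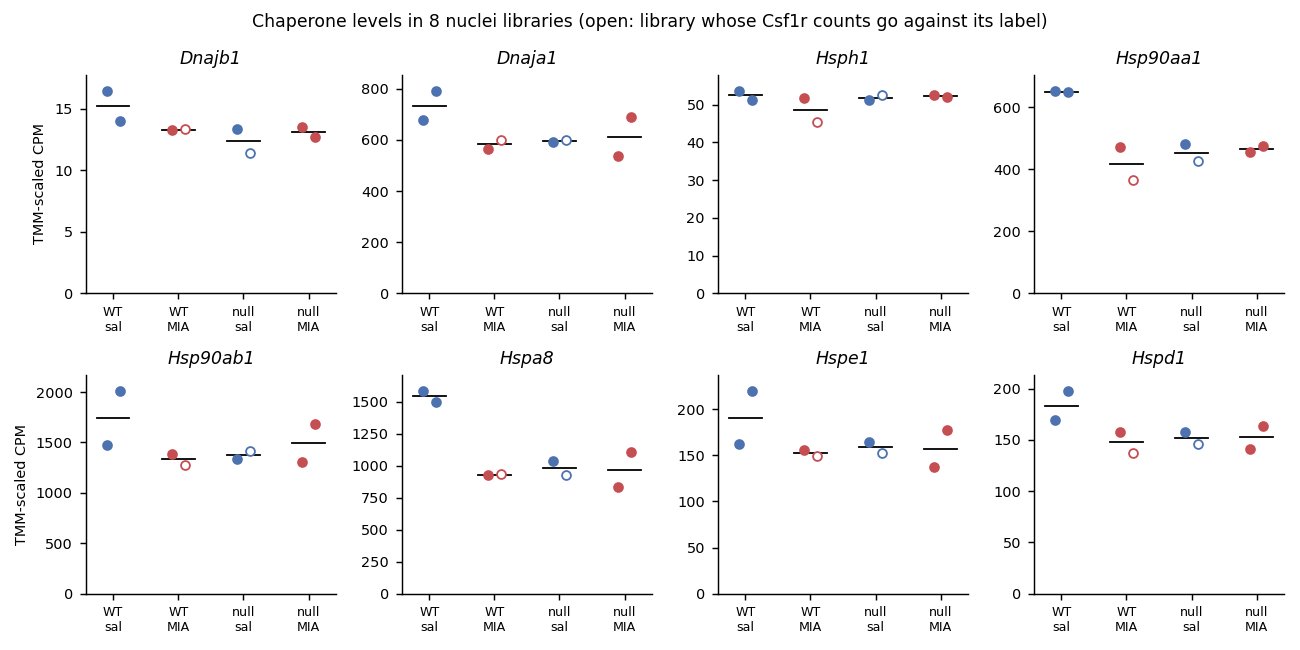
TMM-scaled CPM of the 8 tested chaperone genes in each of 8 nuclei libraries, by genotype and treatment. Open points are the libraries whose Csf1r counts go against their labels, and axes start at 0. Both wild-type saline libraries lie above the other 6 for Hspa8 (1583 and 1499 CPM against 835 to 1104 CPM) and Hsp90aa1 (653 and 648 CPM against 365 to 483 CPM).

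Hspa8 stood at 1583 and 1499 CPM in wild-type saline, 928 and 933 CPM in wild-type MIA, 1039 and 930.5 CPM in Csf1r-null saline, and 835 and 1104 CPM in Csf1r-null MIA. The 2 wild-type saline libraries stood apart, and the other 3 groups overlapped. The log2 difference in wild type was -0.72 ± 0.18 (adjusted p = 0.885). It ranged from -0.75 to -0.65 over the alternatives, which include leaving out the libraries that go against their labels (-0.71), exchanging their labels (-0.71) and leaving out interneurons (-0.69). Its lowest adjusted p over them was 0.193. The summed level of the division genes also stood apart, at 3356 to 3457 CPM in wild-type saline and 2178 to 2669 CPM in the other libraries. The share of nuclei in clusters scoring high for them did not, at 5.94 to 6.03% and 5.18 to 7.71%. The part of division genes in the results of the members was not tested.

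Hsp90aa1 stood at 653 and 648 CPM in wild-type saline, 471 and 365 CPM in wild-type MIA, 483 and 426 CPM in Csf1r-null saline, and 456 and 477 CPM in Csf1r-null MIA. The pattern was that of Hspa8, with a log2 difference of -0.63 ± 0.17 (adjusted p = 0.885). The library labelled wild-type MIA replicate 2 was the lowest of the 8, and without it the difference was -0.45. For Hsp90ab1 the levels were 1469.7 and 2009.5 CPM in wild-type saline and 1388.5 and 1278 CPM in wild-type MIA, and for Dnaja1 676 and 792 CPM against 564 and 600.3 CPM. Without both libraries that go against their labels the log2 differences were -0.45 for Hsp90aa1, -0.36 for Dnaja1, -0.30 for Hsp90ab1, -0.27 for Hspe1, -0.20 for Hspd1, -0.19 for Dnajb1 and -0.00085 for Hsph1. With all libraries, the wild-type groups did not overlap in either Hsp90ab1 or Dnaja1, but their 2 saline libraries differed from each other about as much as the groups did (log2 differences -0.37 ± 0.21 and -0.32 ± 0.18). The mitochondrial genes were at 162 and 219.5 CPM against 156 and 149 CPM (Hspe1, -0.31 ± 0.20) and at 169 and 198 CPM against 158 and 137 CPM (Hspd1, -0.30 ± 0.16). Dnajb1, at 16.5 and 14.03 CPM against 13.3 and 13.4 CPM, differed by -0.19 ± 0.18. Hsph1, at 53.7 and 51.2 CPM against 51.8 and 45.5 CPM, overlapped (-0.10 ± 0.13). The 8 adjusted p lay between 0.885 and 0.946. Over the alternatives the log2 difference ranged from -0.82 to -0.45 for Hsp90aa1, -0.55 to -0.13 for Hsp90ab1 and -0.40 to -0.20 for Dnaja1. It ranged from -0.52 to -0.07 for Hspe1, -0.40 to -0.18 for Hspd1, -0.29 to -0.03 for Dnajb1 and -0.25 to 0.01 for Hsph1.

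In Csf1r-null nuclei the 8 members differed by -0.03 to 0.11 between MIA and saline, and no gene passed (0% of 14376, 41 at an unadjusted p under 0.05, 1 by DESeq2). In 0 of 8 members were the Csf1r-null MIA libraries all below Csf1r-null saline (5.77% of all genes) and in 0 of 8 all above (10.9%). Without the 2 libraries that go against their labels, the members differed by -0.12 to 0.15, and 1 of 8 (Hsp90aa1) was below (21.8% of all genes) and 1 of 8 (Hsph1) above (27.1%). The interaction of treatment and genotype did not pass for any member (0% of 14376 genes, 248 at an unadjusted p under 0.05, 2 by DESeq2). It was -0.68 ± 0.26 for Hspa8 (adjusted p = 0.999), -0.65 ± 0.24 for Hsp90aa1 and -0.48 to -0.09 for the other 6, and without these libraries -0.60 for Hspa8, -0.38 for Hsp90aa1 and -0.45 to -0.01 for the other 6. Between genotypes, Hspa8 differed by -0.29 ± 0.13 in Csf1r-null against wild type and the other 7 by -0.18 to 0.04, with no gene called (0% of 14376, 440 at an unadjusted p under 0.05, 0 by DESeq2). Without these libraries the 8 members differed between genotypes by -0.26 to -0.02. A wild-type difference larger than the Csf1r-null difference was thus not shown by these tests.

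Of 57 network genes tested in nuclei, 46 were lower in wild-type MIA, none passed over all genes, and 11 had an unadjusted p under 0.05, beside 5.42% of all genes. TRiC accounted for 7 of these 11. All 7 tested subunits of TRiC were lower in wild-type MIA, with log2 differences of -0.69 to -0.40 and a median of -0.51. In Csf1r-null nuclei all 7 were higher, by 0.03 to 0.12. The shares of all genes with these directions were not counted. The interaction of treatment and genotype passed for none of the 7, with a median of -0.55 and 5 at an unadjusted p under 0.05, beside 1.73% of all genes. Without the 2 libraries that go against their labels, all 7 were lower in wild type, with -0.73 to -0.26, and in Csf1r-null nuclei 5 were higher and 2 lower, with -0.03 to 0.13. The 6 prefoldin subunits had log2 differences of -0.44 to -0.34 in wild type, and of -0.58 to -0.22 without these libraries. Wild-type saline replicate 1 held 29.3% interneuron-like nuclei against 4.23 to 6.64% in the other 7 libraries. This class joined a cluster of 2239 nuclei led by Maf, Nxph1 and Lhx6 with a cluster of 1063 led by Ebf1, Isl1 and Six3. Of the 1063 nuclei, 87.4% came from 1 library, wild-type saline replicate 1. Whether they are cortical interneurons was not tested, and the name of the class rests on the marker list alone. Leaving the interneuron-like class out left the difference of Hspa8 and Hsp90aa1 at -0.69 and -0.62.

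Nuclei were also grouped by cluster into classes, named from marker lists. Hspa8 was higher in wild-type saline than in every other library in each of 4 classes. It stood at 1254 to 1719 CPM in apical progenitor-like, 1172 to 1525 CPM in intermediate progenitor-like, 1386 to 1619 CPM in excitatory neuron-like and 1499 to 1786 CPM in interneuron-like nuclei of wild-type saline, and at 777 to 1097 CPM over these classes in the other libraries. Hsp90aa1 in wild-type saline stood at 572 to 692, 492 to 577, 601 to 701 and 587 to 678 CPM in these classes, in the same order. In the other libraries it stood at 278 to 516 CPM over these classes. Over whole libraries, 8.68% of all genes had both wild-type saline libraries above all others, and the share within a class was not computed. The order was not shared by every member and class, as Hsph1 in interneuron-like nuclei stood at 47.9 to 53.1 CPM in wild-type saline and at 60.4 to 77.8 CPM in the other libraries. The interneuron-like class of wild-type saline replicate 1 is mostly the cluster led by Ebf1, Isl1 and Six3. Its values in that class therefore may not compare like nuclei between libraries.

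**Figure D5:**
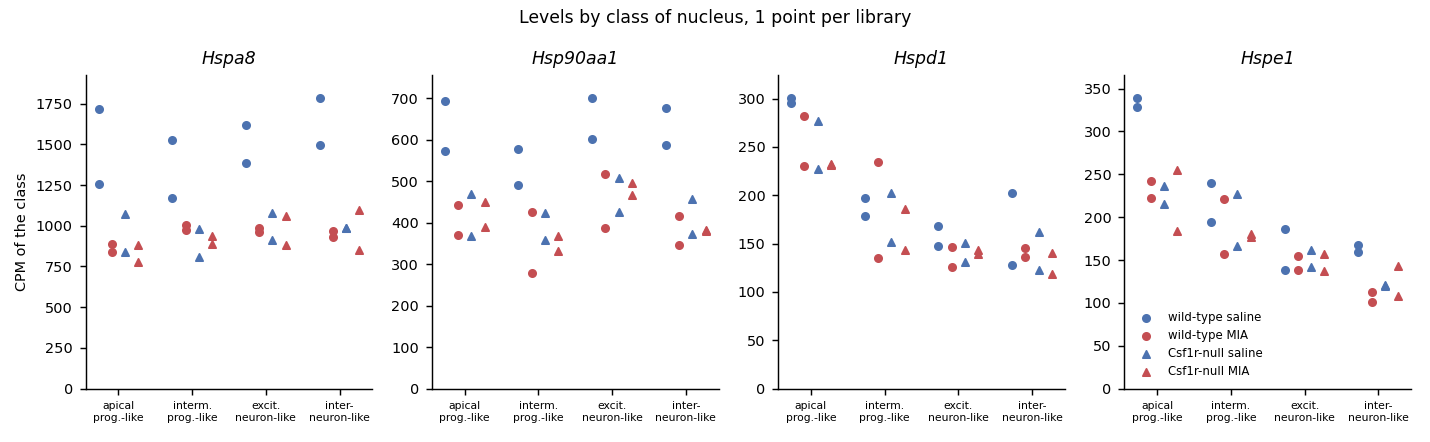
CPM of Hspa8, Hsp90aa1, Hspd1 and Hspe1 in 4 classes of nuclei (horizontal axis), 1 point per library, blue saline and red MIA, circles wild type and triangles Csf1r-null. For Hspa8 the wild-type saline libraries lie at 1172 to 1786 CPM and the others at 777 to 1097 CPM, and Hspd1 and Hspe1 are higher in apical progenitor-like than in excitatory neuron-like nuclei in 8 of 8 libraries. The same holds for 36.8% of all genes at 10 CPM or more in excitatory neuron-like nuclei.

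Across classes, the members fell into different patterns, described here because clusters and levels came from the same nuclei. The chaperonin genes and Hsph1 were higher in apical progenitor-like than in excitatory neuron-like nuclei in 8 of 8 libraries, with median log2 ratios of 0.85 for Hspd1, 0.76 for Hsph1 and 0.65 for Hspe1, as were 36.8% of all genes at 10 CPM or more in excitatory neuron-like nuclei. These are 3 of the 8 members at that level, near the share of all genes. Intermediate progenitor-like nuclei lay between these classes for the same 3 genes in 8 of 8 libraries on both sides (6.78% of all genes). Dnaja1 took the reverse order (-0.54, lower in apical progenitor-like nuclei in 8 of 8), with intermediate progenitor-like nuclei between, as in 4.13% of all genes. Hsp90aa1 was lower in apical progenitor-like than in excitatory neuron-like nuclei (-0.13, 8 of 8) and lowest of the 3 in intermediate progenitor-like nuclei (-0.28 against excitatory neuron-like and -0.18 against apical progenitor-like nuclei, 8 of 8 each), an order found in 1.59% of all genes. Hsp90ab1 (-0.63), Dnaja1 (-0.26) and Hsp90aa1 (-0.18) were lower in interneuron-like than in excitatory neuron-like nuclei in 8 of 8 libraries, as were 12.3% of all genes.

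Finally, the spread between libraries of a group was compared between genes in microglia, as Spearman's rho of the deviations from group means over 18 libraries. Points share libraries, depth and, in part, barcodes, so the values are descriptions. Among members, Dnajb1 and Hspa8 varied together most (0.96), then Hspa8 with Hspe1 (0.83), Dnajb1 with Hspe1 (0.83), Hsp90ab1 with Hspe1 (0.81), Hsph1 with Hsp90aa1 (0.76) and Hspa1a with Hspa1b (0.76), while Dnajb1 and Hsph1 varied in opposite directions (-0.58). Of 3109 genes at 50 CPM or more that are no members, those close to Hspa1a included Ehd4 (0.80), Phf23 (0.75), Hfe (0.75) and Lrp10 (0.73). The closest to Hsp90ab1 were Lsm12 (0.92), Psmd4 (0.90), Zcchc17 (0.90), 2410015M20Rik (0.90) and Rpl18 (0.89).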

How the data were processed

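The authors aligned 10x Chromium 3′ reads to mm10 with Cell Ranger (3.1.0 per the labels, and 3.1.0 or 6.0.1 per the file headers, the latter with a longer gene list for replicate 2 of the nuclei) and deposited raw UMI counts per gene and barcode, with no normalization. All 26 libraries were used and 0 columns of values were left unmapped. Filters were 500 genes and a mitochondrial share of 20% for microglia, and 500 UMIs and 200 genes for nuclei. The cells of highest Scrublet score were removed as doublets, in a share that grew with library size, since the automatic threshold marked 0 to 3.93%. Cells were clustered in scanpy 1.11.5 (2000 variable genes, 30 components, 20 neighbours, Leiden resolution 1), and clusters with markers of other cells were left out of the microglia.

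Counts were summed per library and tested with edgeR 4.0.16 (R 4.3.3) by quasi-likelihood F tests with TMM factors, filterByExpr and Benjamini-Hochberg adjustment over all genes. Fits of MIA at 1 stage used that stage, stage fits used all saline microglia, and nuclei fits used all 4 groups. DESeq2 1.42.0, other filters, left-out libraries and a replicate block were alternatives. The code was tested on simulated counts. p-values measure the spread between libraries. The block is warranted at E15, where same-numbered saline and MIA libraries deviated together (correlations 0.591, 0.203 and 0.589). The named genes are the 10 members, the 10 network genes of largest change in each stage step, the 5 genes most like Hspa1a and Hsp90ab1 (1 of them is not reported here), and those of the lists. Genes raised in the HSP70-rich cells were named after their values were seen. Members and lists were chosen with earlier results of these data known.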

Additional observations from a re-analysis of the deposited data

Results flagged for a closer look

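P14 saline was the only group of at least 4 libraries, and a library stood apart in it for 1 of 10 members by Dixon's criterion, which chance alone meets in about 1 of 20 tests. The 10 tests share the same 4 libraries. Hsp90ab1 in P14 saline replicate 2 was at 748 CPM, while the other 3 P14 saline libraries were at 938 to 959 CPM, a gap of 0.9015 of the whole range. With each shared barcode kept in 1 library, replicate 2 was at 748 CPM and the other 3 at 948, 806 and 847 CPM, and it no longer met the criterion. P14 MIA replicate 2 was at 771 CPM and P14 MIA replicate 1 at 940 CPM.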

How the results depend on the processing

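Counts of members called stayed at 0 for MIA in microglia and in nuclei, for both interactions and for genotype under every alternative run. In the stage steps they ranged from 4 to 6 (E15 against E13) and from 8 to 9 (P14 against E15), with each library left out in turn included. The counts of all genes called ranged from 1834 to 5763 and from 6095 to 7608. With the replicate block the 2 steps called 4 and 8 members, beside 3564 and 6844 of all genes, and all other comparisons called 0 members. The block changed 1 call, that of Dnaja1 in the first step (adjusted p = 0.0602). Same-numbered libraries deviated together in the nuclei (correlation 0.508 in wild type and 0.677 in Csf1r-null, 1 independent value each with 2 libraries a group) and not in every E13 pair (0.309, 0.0633 and 0.387). Over 91 results for single members and 1536 refits, 22 refits moved a member across the threshold and 0 of a called member turned its sign, whereas 128 refits of a member that was not called did. Leaving out 1 library moved the count of all genes called in the first step from 3537 to 5763 without E15 saline replicate 1, which had the largest share of cells in clusters scoring high for division genes of the E15 saline libraries (27.0%), and to 1834, 2081 and 2110 without E13 saline replicate 2, E13 saline replicate 3 and E15 saline replicate 2. For wild-type nuclei, 0 genes were called by edgeR, 64 without a filter on low counts and 4 by DESeq2. At E13, 0 genes were called for MIA, 5 with the block and 6 without MIA replicate 3. Intervals and p-values cover neither the sharing of barcodes between libraries nor stress during handling, and depth limited Hspa1a and Hspa1b at P14 and in nuclei.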
